A study of Mus musculus with 12 samples.

Results

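The long noncoding RNAs described here are hosts of small nucleolar RNAs (snoRNAs) and abundant RNAs of the nucleus. They were chosen by symbol, as the rows of the deposited count table named Gas5, Snhg1, Snhg3, Snhg5, Snhg6, Snhg8, Snhg12, Snhg15, Neat1 or Malat1. Of these 10 names, 8 had a row among the 42748 genes of the table, and Snhg1 and Snhg8 were not analysed here. Of the 8, 7 had enough counts to be tested, and Snhg3 fell under the filter on low values, with 1 to 9 counts per library.

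A snoRNA host gene carries snoRNAs in its introns. After splicing, the introns are trimmed to mature snoRNAs, which join proteins and guide the chemical modification of ribosomal RNA. The spliced host RNA often begins with a run of pyrimidines after an initial C, the 5′ TOP motif of translation genes, and several hosts are degraded by nonsense-mediated decay when ribosomes translate them. Neat1 is the RNA on which paraspeckles form, nuclear bodies that grow in stressed cells, and Malat1 gathers in nuclear speckles, where splicing factors are stored.

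The RNA came from kidneys of adult mice. The 4 groups were mice with a genetic deletion of Ybx3 after experimental renal ischemia/reperfusion injury (KO IRI), mice with the deletion and no injury (KO control), wild-type mice after the injury (WT IRI) and uninjured wild-type mice (WT control), with 3 libraries each. Ybx3 encodes DNA-binding protein A, called DbpA in the labels, and in the injury the blood flow of the kidney is stopped and then restored. The deleted part of the gene, the time after injury, the sex and the strain are not stated in the labels. Nor do they say whether replicates are separate animals, so the p-values cover the spread among these libraries. The Y-linked sums below differ widely within KO IRI, KO control and WT IRI, as repeats of 1 sample would not. In WT control the spread may be technical.

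Libraries held 39074224 to 67948710 counts. Ybx3 averaged 15.9 ± 2.49 CPM (counts per 1000000 of the scaled library size) in KO IRI, 10.6 ± 2.03 CPM in KO control, 79.8 ± 25.3 CPM in WT IRI and 33.4 ± 3.35 CPM in WT control (SD, n = 3 each), and every KO library lay below every WT library. All 5 markers of the proximal tubule, the most abundant cell type of the kidney, were present in every library. Their summed level was 3520 to 7032 CPM in KO IRI, 9770 to 12809 CPM in KO control, 3132 to 6461 CPM in WT IRI and 10350 to 13500 CPM in WT control. Most of the sum came from Lrp2 and Slc34a1, and Slc22a6 did not follow it, with means of 357.7 CPM in KO IRI, 403.2 CPM in KO control, 451.8 CPM in WT IRI and 217.0 CPM in WT control. The 5 adrenal cortex markers summed to 271.7 and 1397 CPM in KO IRI replicates 1 and 2 and to between 5.15 and 7.49 CPM in the other libraries. The 4 Y-linked markers (Ddx3y, Kdm5d, Eif2s3y, Uty) summed to 45.2, 227.4 and 1.26 CPM in KO IRI replicates 1 to 3, to 1.18, 248.5 and 261.2 CPM in KO control, to 206.6, 33.2 and 307.1 CPM in WT IRI, and to 1.14, 1.79 and 1.54 CPM in WT control. In wild type, therefore, injury and Y-linked level cannot be told apart.

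The hosts of the table carried 19 snoRNAs at distinct places within their spans in GENCODE M21 (build GRCm38, also called mm10), in 6 of the 8 genes. These have 21 entries, since Snord80 in Gas5 and Snora16a in Snhg12 are annotated under a pair of overlapping IDs each. Gas5 held 9, Snhg12 held 4, Snhg3 and Snhg5 held 2 each, and Snhg6 and Snhg15 held 1 each, while Neat1 and Malat1 held none. Some annotated snoRNAs of 4 hosts are printed to show both classes and the Snord50 pair. Box C and box D of the C/D class, which guides the methylation of ribose, or the ACA triplet near the end of the H/ACA class, which guides the change of uridine to pseudouridine, are in capitals. The same search found no box C in Snord78 of Gas5 and no ACA triplet near the end of Snora44 of Snhg12, which are not printed.
Snord47: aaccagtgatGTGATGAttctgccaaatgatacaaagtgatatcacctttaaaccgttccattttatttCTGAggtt
Snord50a: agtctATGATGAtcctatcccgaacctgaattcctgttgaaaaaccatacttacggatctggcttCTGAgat
Snord50b: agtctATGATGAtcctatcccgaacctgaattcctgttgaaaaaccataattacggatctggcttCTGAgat
Snord87: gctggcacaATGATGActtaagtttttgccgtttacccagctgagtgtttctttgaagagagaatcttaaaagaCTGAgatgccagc
Snora9: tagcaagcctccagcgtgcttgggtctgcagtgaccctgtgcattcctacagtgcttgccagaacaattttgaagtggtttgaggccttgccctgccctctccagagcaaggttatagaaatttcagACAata
Snord47 lies in Gas5 (chr1:161038082-161038158, plus strand). Snord50a (chr9:88521529-88521600) and Snord50b (chr9:88521797-88521868) lie in Snhg5 on the minus strand and share 71 of 72 bases. Snord87 (chr1:9942463-9942549, minus strand) lies in Snhg6 and Snora9 (chr11:6528033-6528165, minus strand) in Snhg15. Sequences are those of GENCODE M21 transcripts.

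The snoRNAs themselves could not be followed in this table. Of the 21 entries, 19 had a row, and all 19 were at 0 counts in all 12 libraries. Of all snoRNA rows that lie inside another gene on the same strand, 611 of 623 (98.1%) were at 0 in every library, against 697 of 861 elsewhere (81.0%). Snora24, an H/ACA snoRNA that lies inside Snhg8, a host with no row, had counts of 45, 48 and 26 in KO IRI, 32, 30 and 27 in KO control, 35, 24 and 35 in WT IRI, and 22, 19 and 13 in WT control. The values below are therefore those of the host RNAs.

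The hosts' first bases are shown because the 5′ TOP motif is read there. RefSeq promoter entries (GRCm38.p6) were found for 6 of the 8 genes, with 7 start sites. Each line holds 60 bases before the start and 50 from it, and capitals mark a C followed by at least 4 pyrimidines (C or T) that begins within 10 bases of the start, read on the transcribed strand only.
Gas5: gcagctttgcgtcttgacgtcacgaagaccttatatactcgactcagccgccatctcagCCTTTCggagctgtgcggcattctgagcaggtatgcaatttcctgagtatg
Snhg12: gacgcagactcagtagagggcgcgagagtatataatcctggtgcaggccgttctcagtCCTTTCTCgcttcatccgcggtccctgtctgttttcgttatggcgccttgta
Snhg5: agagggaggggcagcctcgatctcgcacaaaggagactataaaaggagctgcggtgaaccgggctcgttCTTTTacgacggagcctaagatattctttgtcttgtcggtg
Snhg15: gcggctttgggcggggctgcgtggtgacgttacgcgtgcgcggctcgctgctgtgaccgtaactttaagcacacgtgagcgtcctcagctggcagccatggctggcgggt
These windows are chr1:161035106-161035215 (Gas5, the second of its start sites, plus strand), chr4:132308618-132308727 (Snhg12, plus strand), chr9:88522848-88522957 (Snhg5, minus strand) and chr11:6528711-6528820 (Snhg15, minus strand). Such a tract was found at 4 of the 7 starts, those of Gas5 (6 bases, 1 base before the annotated start), Snhg12 (8 bases, 2 before it), Snhg3 (5 bases, 2 after it) and Snhg5 (5 bases, 9 after it). By the same rule 29.0% of 32851 promoters held a tract. On both strands of the 300-base promoters, 3 more motifs were sought. TATAAA, the form that the TATA-binding protein reads, was found at Snhg5, 23 bases before the start, and at Snhg3, 22 bases after the start, and 13.6% of all promoters held it. TGACGTCA, which CREB and ATF proteins bind, was found at the second Gas5 start, 46 bases before it, and at Snhg15, 88 bases before the start, and 1.79% of all promoters held it. CACGTG, the E-box form that Myc binds, was found 11 bases after the start of Snhg15, and 7.15% of all promoters held it. The first Gas5 start and Malat1 held neither a tract nor any of these motifs.

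Per kilobase of annotated exon, the nuclear RNAs lay far above the hosts. Malat1 was the highest and Neat1 the next in all 12 libraries. Malat1 ranged from 1692 to 2174 CPM per kb in KO IRI, from 1508 to 1608 in KO control, from 1611 to 3064 in WT IRI and from 1172 to 1456 in WT control, and it was between the 4th and the 7th most counted gene of each library. Neat1 ranged from 47.7 to 78.6 CPM per kb in KO IRI, from 34.5 to 42.0 in KO control, from 54.4 to 586.1 in WT IRI and from 27.3 to 43.0 in WT control. Gas5 was the highest host, from 6.13 to 8.84 CPM per kb in KO IRI, 4.16 to 4.71 in KO control, 7.30 to 11.8 in WT IRI and 4.26 to 4.73 in WT control. Snhg6 followed below Gas5 in 11 of 12 libraries, and the ranges of these neighbours overlapped in WT IRI, where Snhg6 reached 4.13 to 9.67 CPM per kb. Of the 7 tested RNAs, Snhg5 was last in 11 of 12 libraries. Snhg3, which was not tested, was left out of this order and had a mean of 0.069 CPM per kb over all libraries. The ranges of Snhg12 and Snhg15 overlapped in KO IRI (2.04 to 2.74 and 1.89 to 4.11 CPM per kb), in KO control and in WT IRI, so that their order was resolved in WT control only (2.27 to 2.47 and 1.38 to 1.52 CPM per kb). Exon lengths are from GENCODE M21, and the labels do not name the annotation used for counting, so that ratios between genes depend on that choice. Joined over all transcripts, exons cover 3760 of 4118 bases of Gas5, 1730 of 1880 of Snhg5 and all 2402 of Snhg12. They cover 1146 of 2160 bases of Snhg6 and 1359 of 3170 of Snhg15. The order of the hosts depends on these lengths too.

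**Figure D1:**
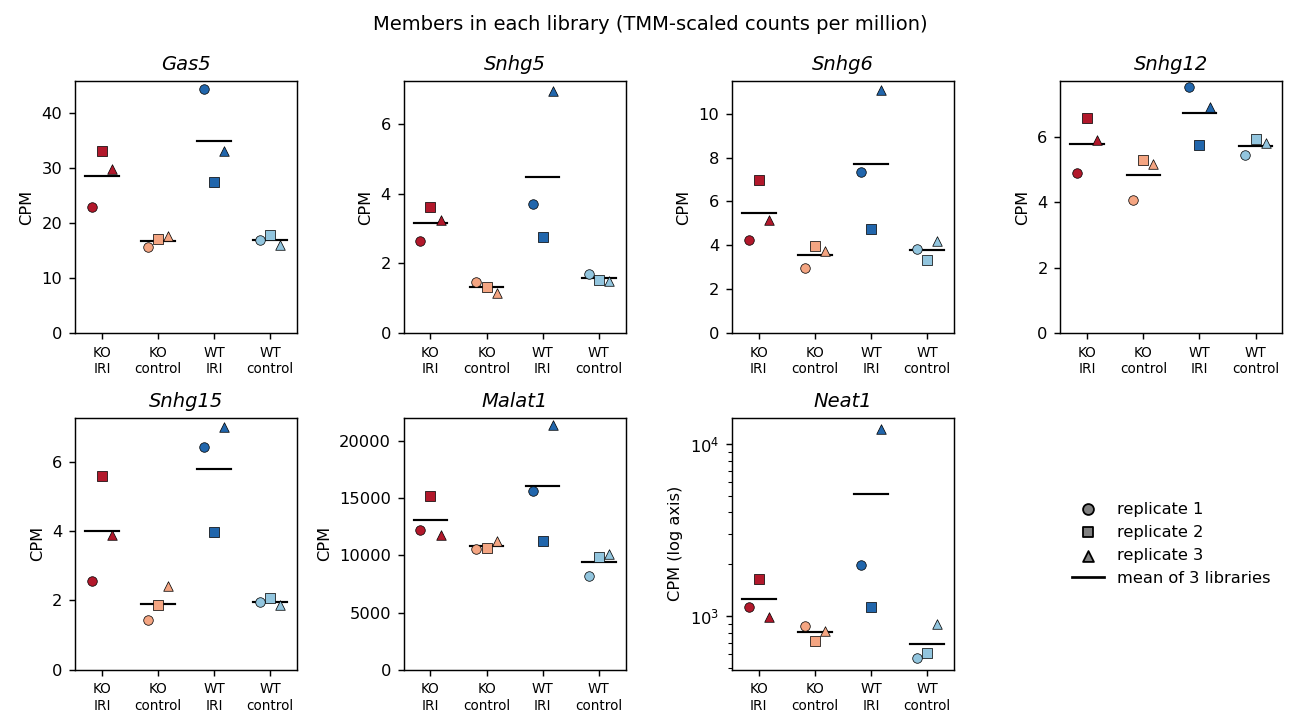
CPM of the 7 tested RNAs in each of the 12 libraries, with 1 symbol per replicate and a bar at the mean of 3; the Neat1 panel has a logarithmic axis and the others start at 0. For Gas5, Snhg5, Snhg6, Snhg15, Neat1 and Malat1 all IRI libraries lie above all control libraries of the same genotype, and WT IRI replicate 3 stands at 12175 CPM for Neat1.

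After IRI, Gas5 and Snhg5 rose in both genotypes, and Snhg6, Snhg15, Neat1 and Malat1 rose in WT. Of 7 tested, 2 were called higher and none lower in KO IRI against KO control, and 6 higher and none lower in WT IRI against WT control. A gene was called when edgeR's quasi-likelihood test gave a Benjamini-Hochberg adjusted p under 0.05 over the 19218 genes tested. Of all genes tested, 6.32% were called in KO (3.9% higher and 2.42% lower) and 22.5% in WT (13.1% higher and 9.41% lower). The median log2 fold change of the 7 was 0.64 in KO, where that of all genes tested was 0.02, and 1.05 in WT, where that of all genes was 0.02. In each genotype the IRI and control libraries did not overlap for 6 of the 7, with IRI higher, and the same held for 21.2% of all genes in KO and 21.2% in WT. Fewer cells of a type and less RNA per cell cannot be told apart in such bulk samples.

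Gas5 (ENSMUSG00000053332, chr1:161034422-161038539, plus strand), a host named for its rise in growth-arrested cells, was among those called in both genotypes. It had 23.0, 33.2 and 29.8 CPM in KO IRI, against 15.7, 17.2 and 17.7 CPM in KO control. It had 44.5, 27.4 and 33.1 CPM in WT IRI, against 16.9, 17.8 and 16.0 CPM in WT control. Every IRI library exceeded every control library of either genotype. The fitted log2 fold change was 0.77 in KO (SE 0.18, edgeR adjusted p = 0.0316) and 1.05 in WT (SE 0.18, edgeR adjusted p = 0.00455). The KO call ended without any WT control library, any KO control library, or KO IRI replicate 2 or 3 (edgeR adjusted p from 0.0509 to 0.148), and the WT call held without each library in turn.

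Snhg5 (ENSMUSG00000097195, chr9:88521050-88522929, minus strand), the host of the Snord50 pair printed above, had 2.63, 3.62 and 3.27 CPM in KO IRI, against 1.46, 1.32 and 1.15 CPM in KO control. It had 3.72, 2.76 and 6.96 CPM in WT IRI, against 1.71, 1.54 and 1.48 CPM in WT control. Again no IRI library fell within the range of the controls, at 73 to 327 counts per library. On the log2 scale the fold change was 1.27 in KO (SE 0.30, edgeR adjusted p = 0.0338) and 1.5 in WT (SE 0.30, a 2.84-fold increase, edgeR adjusted p = 0.00849). The KO call ended without any WT control library, KO control replicate 2 or 3, or KO IRI replicate 2 or 3 (edgeR adjusted p from 0.0519 to 0.137). Gas5 and Snhg5 were both uncalled in KO when both libraries with adrenal transcripts were left out, with log2 fold changes of 0.80 (edgeR adjusted p = 0.229) and 1.29 (edgeR adjusted p = 0.298), a comparison that keeps 1 KO IRI library and calls 44 of all genes.

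Snhg15 (ENSMUSG00000085156, chr11:6525591-6528760, minus strand), the host of Snora9, had 2.57, 5.59 and 3.88 CPM in KO IRI, against 1.44, 1.86 and 2.40 CPM in KO control. It had 6.44, 3.99 and 7.0 CPM in WT IRI, against 1.97, 2.06 and 1.87 CPM in WT control. The lowest WT IRI library lay well above the highest WT control library, whereas the lowest KO IRI library lay just above the highest KO control library. The log2 fold change was 1.56 in WT (SE 0.31, edgeR adjusted p = 0.00816). In KO it was 1.08 (SE 0.31, edgeR adjusted p = 0.0605), which did not pass. That value passed without KO IRI replicate 1 (edgeR adjusted p = 0.0314), WT IRI replicate 2 (edgeR adjusted p = 0.0366) or WT IRI replicate 3 (edgeR adjusted p = 0.0393), and with DESeq2 (adjusted p = 0.0146). Of all genes, these fits called 5.29%, 9.28%, 14.7% and 13% in KO, in that order, against 6.32% with edgeR on all 12 libraries.

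Snhg6 (ENSMUSG00000098234, chr1:9941959-9944118, minus strand), the host of Snord87, had 4.25, 6.97 and 5.17 CPM in KO IRI, against 2.97, 3.99 and 3.73 CPM in KO control. It had 7.33, 4.74 and 11.1 CPM in WT IRI, against 3.84, 3.34 and 4.20 CPM in WT control. Replicate 3 was the highest of the WT IRI libraries and replicate 2 the lowest, at little more than the highest control. The log2 fold change was 1.02 in WT (SE 0.29, edgeR adjusted p = 0.0302) and 0.62 in KO (SE 0.29, edgeR adjusted p = 0.232). The WT call ended without any WT control library or without WT IRI replicate 1 or 3 (edgeR adjusted p from 0.0653 to 0.104), and without replicate 3 the log2 fold change was 0.67. Mcmdc2 lies on the opposite strand and shares 11.1% of the Snhg6 exon bases, and the labels do not say whether counting used the strand.

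Snhg12 (ENSMUSG00000086290, chr4:132308623-132311024, plus strand) was the tested host that passed in no comparison, although it carries 4 annotated snoRNAs. It had 4.90, 6.58 and 5.91 CPM in KO IRI, against 4.06, 5.31 and 5.17 CPM in KO control. It had 7.54, 5.74 and 6.92 CPM in WT IRI, against 5.44, 5.93 and 5.82 CPM in WT control. In both genotypes the groups overlapped. The log2 fold change was 0.26 in KO (95% interval -0.11 to 0.62, edgeR adjusted p = 0.398) and 0.23 in WT (95% interval -0.13 to 0.60, edgeR adjusted p = 0.321).

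Snhg3 (ENSMUSG00000085241, chr4:132348014-132353686, minus strand) is the host of Snora73a and Snora73b, which act in the cleavage of the ribosomal RNA precursor. It had 5, 6 and 3 counts in KO IRI, 9, 4 and 4 in KO control, 3, 2 and 1 in WT IRI, and 3, 3 and 4 in WT control. Of its exon bases, 86.3% are shared with exons of other genes, among them Rcc1 on the same strand and Gm17300 on the other, and no test was made.

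Neat1 (ENSMUSG00000092274, chr19:5824708-5845478, minus strand) had 1125, 1634 and 990.2 CPM in KO IRI, against 872.0, 717.5 and 820.1 CPM in KO control. It had 1974, 1130.2 and 12175 CPM in WT IRI, against 567.9, 612.9 and 893.5 CPM in WT control. WT IRI replicate 3 stood far above every other library, with 572145 counts, and within each genotype no IRI library overlapped the controls. The log2 fold change was 2.88 in WT (SE 0.71, edgeR adjusted p = 0.0188) and 0.64 in KO (SE 0.67, edgeR adjusted p = 0.639). Without WT IRI replicate 3 the WT value was 1.17 (edgeR adjusted p = 0.0238), still past the threshold, and the KO value was 0.64 (SE 0.26, edgeR adjusted p = 0.123). The call ended without WT control replicate 1, 2 or 3 (edgeR adjusted p = 0.0669, 0.0728 and 0.0562, in that order). In KO the 95% interval ran from -0.83 to 2.11 in the fit of all libraries, whose spread includes WT IRI replicate 3.

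Malat1 (ENSMUSG00000092341, chr19:5795690-5802672, minus strand) had 12243, 15184 and 11818 CPM in KO IRI, against 10530.2, 10685 and 11230.3 CPM in KO control. It had 15647.5, 11253 and 21397 CPM in WT IRI, against 8182, 9908 and 10164.5 CPM in WT control. The groups did not overlap in either genotype, but the lowest KO IRI library exceeded the highest KO control library by little. The log2 fold change was 0.77 in WT (SE 0.23, edgeR adjusted p = 0.0376) and 0.27 in KO (SE 0.23, edgeR adjusted p = 0.542). The WT call ended in 9 of the 12 fits that left out 1 library, all but those without WT IRI replicate 2, KO control replicate 1 or KO IRI replicate 2 (edgeR adjusted p from 0.0502 to 0.116), and without WT IRI replicate 3 the log2 fold change was 0.51. Per kilobase, Malat1 stood at 27.6 to 35.5 times the Neat1 level in KO IRI, 35.9 to 44.3 times in KO control and 33.8 to 48.1 times in WT control. In WT IRI it stood at 5.23 to 29.6 times the Neat1 level, and the lowest ratio was that of replicate 3.

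**Figure D2:**
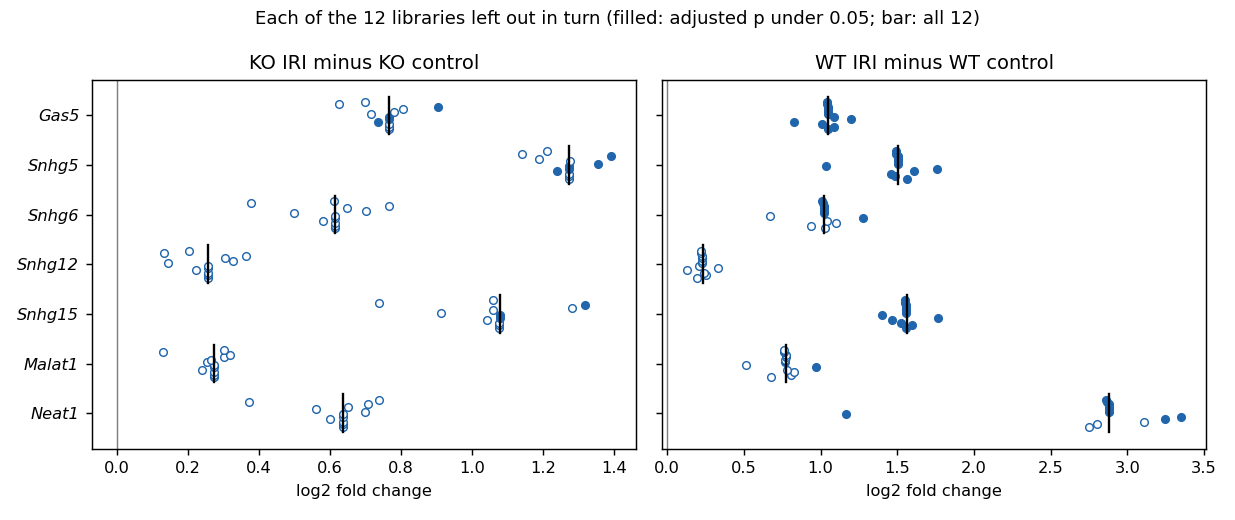
Log2 fold change after IRI in each genotype when each of the 12 libraries was left out in turn (points, filled where the adjusted p was under 0.05) and with all 12 (bars). Gas5, Snhg5 and Snhg15 are filled throughout in WT, Neat1 drops to 1.17 in WT without WT IRI replicate 3, and no point in either panel lies below 0.

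In the IRI groups 1 replicate stood at an extreme for every RNA. In KO IRI all 7 were highest in replicate 2, and in WT IRI all 7 were lowest in replicate 2, while the highest WT IRI library was replicate 3 for 5 RNAs and replicate 1 for Gas5 and Snhg12. In both control groups the highest library differed between RNAs. KO IRI replicate 2 had the lowest proximal tubule markers of its group (3520 CPM, against 7032 and 5233 CPM in replicates 1 and 3) and the most adrenal transcripts. WT IRI replicate 2 had the highest proximal tubule markers of its group (6461 CPM, against 3132 and 4111 CPM in replicates 1 and 3) and the lowest Y-linked sum. The neutrophil markers S100a8 and S100a9 summed to 1.77, 3.54 and 2.47 CPM in KO IRI replicates 1 to 3, and to 10.6, 2.57 and 14.2 CPM in WT IRI. Control libraries held 0.0921 to 0.123 CPM of them in KO and 0.0406 to 0.118 CPM in WT. The leukocyte markers Ptprc, Cd3e and Csf1r summed to 32.8 to 35.7 CPM in KO IRI, against 59.4 to 67.2 CPM in KO control, and to 37.96 to 38.80 CPM in WT IRI, against 66.0 to 71.0 CPM in WT control. The part of these markers in the changes was not tested.

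A covariate for the Y-linked level changed the count in wild type. With it none of the 7 was called in WT IRI against WT control (the smallest edgeR adjusted p was 0.0923, that of Gas5), and 300 of all genes were called, 1.56% of those tested. The log2 fold changes were then 0.89 for Gas5, 1.42 for Snhg5, 0.58 for Snhg6, 1.06 for Snhg15, 2.33 for Neat1 and 0.50 for Malat1. In KO, where libraries of low and high Y-linked level occur in both conditions, the same fit called Gas5, Snhg5 and Snhg15 (edgeR adjusted p = 0.0402 for Snhg15). Of all genes tested, it called 5.71% in KO. Among the KO libraries with a Y-linked sum under 2 CPM, Gas5 was at 29.8 CPM in IRI replicate 3, against 15.7 CPM in control replicate 1. Among those above 200 CPM it was at 33.2 CPM in IRI replicate 2, against 17.2 and 17.7 CPM in control replicates 2 and 3. That IRI library also held the most adrenal transcripts (1397 CPM). Each match holds 1 IRI library, the values are given for Gas5 alone, and no test was made on them.

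Deletion of Ybx3 gave no call among these RNAs. In KO control against WT control 0 of 7 passed, where 0.0104% of all genes tested did. An unadjusted edgeR p under 0.05 was found for 0 of 7 and for 5.36% of all genes. Ybx3 itself did not pass there (log2 fold change -1.66, SE 0.23, edgeR adjusted p = 0.0784), so the absence of a call does not show the absence of a change. After IRI, Ybx3 passed in KO against WT (-2.33, edgeR adjusted p = 0.00719). In the comparison of controls, DESeq2 and limma-voom called 0 of 7 as well, and 0.376% and 0.0104% of all genes, in that order. The log2 fold changes ran from -0.27 for Snhg5 to 0.22 for Neat1 (edgeR adjusted p = 0.999 for all 7). Malat1 was higher in every KO control library than in every WT control library, with a log2 fold change of 0.20 (95% interval -0.31 to 0.71). Snhg5 and Snhg12 were lower in every KO library, by log2 fold changes of -0.27 (95% interval -0.93 to 0.40) and -0.24 (95% interval -0.61 to 0.12). Of all genes tested, 6.34% were higher and 10.1% lower in every KO control library than in every WT control library.

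After IRI the values were lower in KO than in WT for all 7, and none passed. The log2 fold changes of KO IRI against WT IRI ran from -2.03 to -0.22, with a median of -0.50, where the median of all genes was -0.01 and 0.0104% were called. Neat1 had the lowest value (-2.03, SE 0.69, 95% interval -3.55 to -0.51), with an unadjusted p of 0.0136 and an edgeR adjusted p of 0.422, and it was the 1 of 7 with an unadjusted p under 0.05, as 11.5% of all genes had. Its groups overlapped, since WT IRI replicate 2 lay within the KO range. Without WT IRI replicate 3 the log2 fold change was -0.31 (edgeR adjusted p = 0.833). Without WT IRI replicate 2 it was -2.50 and passed (edgeR adjusted p = 0.0428), in a fit that called 4.43% of all genes. With all libraries, DESeq2 and limma-voom called 0 of 7, and 0.611% and 0.0104% of all genes, in that order. The groups overlapped for all 7, and did not overlap for 12.2% of all genes.

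The interaction compares the IRI response of KO with that of WT. None of the 7 passed, nor did any other gene tested (0%), and of the 7 Neat1 alone had an unadjusted p under 0.05, as 7.02% of all genes had (edgeR). DESeq2 called 32 genes and limma-voom 0, none of them among the 7. Its interaction was -2.24 (SE 0.95, unadjusted p = 0.0382, edgeR adjusted p = 0.666), and -0.53 without WT IRI replicate 3 (edgeR adjusted p = 0.799). Malat1 had -0.50 (95% interval -1.22 to 0.22), Gas5 -0.28 (95% interval -0.83 to 0.27) and Snhg15 -0.48 (95% interval -1.43 to 0.46). Calls in WT and not in KO, as for Snhg6, Snhg15, Neat1 and Malat1, are therefore not shown to differ between the genotypes.

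**Figure D3:**
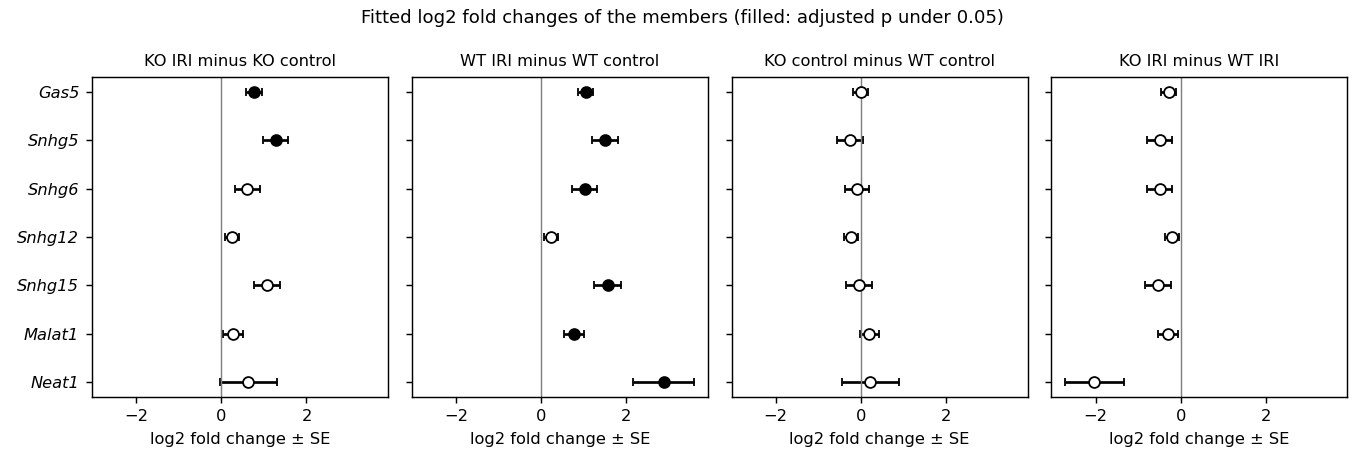
Fitted log2 fold change with its standard error for each of the 7 RNAs in 4 comparisons, filled where the edgeR adjusted p was under 0.05. Filled points occur in the IRI comparisons of both genotypes (2 in KO, 6 in WT) and not between genotypes, where Neat1 after IRI has the lowest value (-2.03).

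Genes of the pathways around these RNAs were counted list by list. The counts here and in the next paragraphs stand beside the shares of all genes called. These were 3.9% higher and 2.42% lower in KO, and 13.1% higher and 9.41% lower in WT. The 4 proteins of the box C/D particle, which bind snoRNAs such as Snord47 and Snord50a, included 3 that rose in KO IRI and 4 that rose in WT IRI. The core protein gene Nop56 had 23.8 ± 4.99 CPM in KO IRI, against 10.8 ± 1.37 CPM in KO control, and 26.4 ± 8.21 CPM in WT IRI, against 12.2 ± 0.82 CPM in WT control (SD, n = 3 each). Its log2 fold change was 1.13 in KO (edgeR adjusted p = 0.0162) and 1.11 in WT (edgeR adjusted p = 0.00821). Nop58, the other core protein, rose by 0.81 in KO and 1.10 in WT on the log2 scale, and Fbl, the methyltransferase fibrillarin, by 0.58 and 0.89. Snu13, which binds the box C/D fold, rose by 0.41 in WT and had 0.38 in KO (edgeR adjusted p = 0.119).

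Of the 4 proteins of the box H/ACA particle, none passed in KO and 3 rose in WT. In WT the log2 fold changes were 1.46 for Nhp2, 1.44 for Gar1 and 0.97 for the pseudouridine synthase gene Dkc1 (edgeR adjusted p = 0.012, 0.00487 and 0.0181, in that order). In KO the 4 values ran from 0.27 to 0.89, with a median of 0.47. Of 12 genes of snoRNA particle assembly, none passed in KO and 5 rose in WT, led by Shq1, a chaperone of Dkc1 (0.90), and Nolc1, which shuttles to the nucleolus (0.77). No gene of these lists was called lower in either genotype. Znhit3, an assembly factor, was lower in every WT IRI library than in every WT control library (-0.30, edgeR adjusted p = 0.173).

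Of 13 other snoRNA hosts listed, 7 could be tested. In KO, Zfas1 rose (log2 fold change 0.96, edgeR adjusted p = 0.0237) and Snhg11 fell (-0.82, edgeR adjusted p = 0.00907). In WT, Epb41l4aos (0.97), Snhg17 (0.91) and Zfas1 (0.87) rose, and Snhg11 fell (-1.13, edgeR adjusted p = 0.0015). Snhg11 had 41.0 ± 6.86 CPM in KO IRI, against 72.5 ± 10.6 CPM in KO control, and 41.4 ± 1.99 CPM in WT IRI, against 90.3 ± 1.45 CPM in WT control (SD, n = 3 each). The hosts that passed did not all move in the same direction.

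Messenger RNAs with a 5′ TOP motif, other than those of the ribosome, were counted because some hosts hold a pyrimidine tract near an annotated start. A link between the tract and the changes was not tested. Of 15 tested, 4 rose in KO and 8 in WT, and none fell. Npm1, of the nucleolar protein nucleophosmin, rose by a log2 fold change of 0.68 in KO and 0.81 in WT (edgeR adjusted p = 0.0433 and 0.0109). Pabpc1, which encodes a poly(A)-binding protein, rose by 0.97 in WT (edgeR adjusted p = 0.00668). The median over the 15 was 0.33 in KO and 0.41 in WT, where that of all genes was 0.02 in each.

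The proteins that gather with the nuclear RNAs were counted too, and the counts of this paragraph stand beside 3.9% of all genes called higher and 2.42% lower in KO, and 13.1% higher and 9.41% lower in WT. Of 15 tested genes of paraspeckle proteins, none passed in KO, and in WT none rose and Hnrnph3 fell (log2 fold change -0.50, edgeR adjusted p = 0.0258). These 15 ran from -0.12 to 0.28 in KO and from -0.50 to 0.44 in WT on the log2 scale. Of 16 genes of nuclear speckle proteins, none passed in KO and 2 rose in WT, Ddx39b (0.54) and Srsf10 (0.34), both of RNA splicing or export. Of 10 genes of nonsense-mediated decay, none passed in KO and 2 rose in WT, Smg9 (0.45) and Smg5 (0.38). Among 11 other long noncoding RNAs of the nucleus, Miat fell in both genotypes, by log2 fold changes of -2.90 in KO (edgeR adjusted p = 0.00423) and -2.72 in WT (edgeR adjusted p = 0.00359). Miat counts per library were low, at 4 to 11 in KO IRI, against 55 to 72 in KO control. In WT IRI they were 1 to 6, against 21 to 33 in WT control. In WT, Ftx (-0.48) and Tug1 (-0.31) also fell and Pvt1 (0.97) rose.

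No gene of any of these lists passed in a comparison of genotypes or in the interaction (edgeR). With the Y-linked covariate the WT counts were 1 for the other hosts, 1 for the other nuclear RNAs and 0 for each remaining list. Without both adrenal libraries the KO counts were 0 for every list, a fit with 1 KO IRI library.

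**Figure D4:**
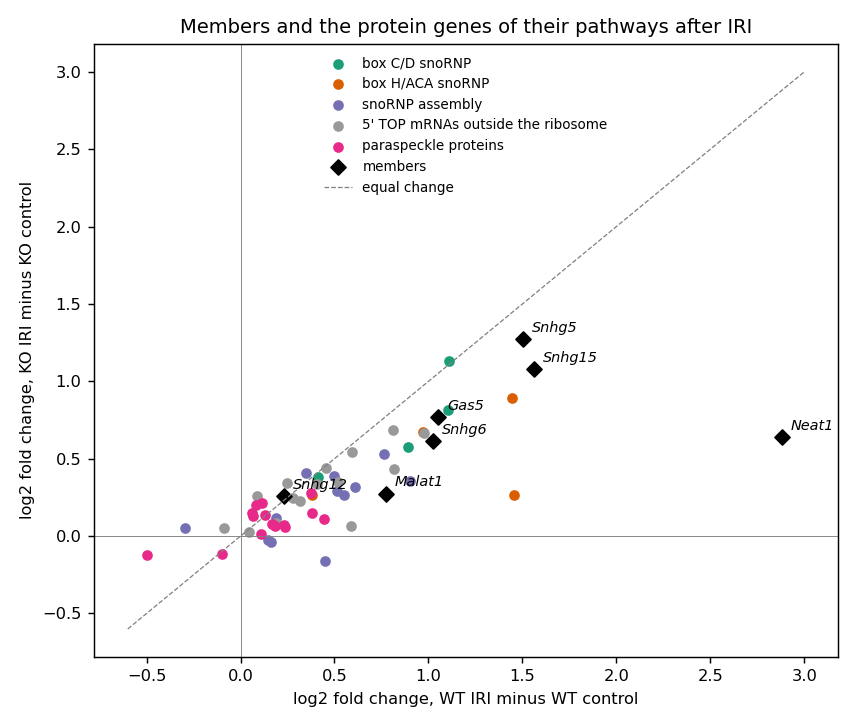
Log2 fold change after IRI in KO (vertical axis) against WT (horizontal axis) for the 7 RNAs (diamonds) and the protein genes of 5 lists, with a dashed line at equal change. Neat1 lies far to the right at 2.88 in WT and 0.64 in KO, the C/D particle genes lie between 0.41 and 1.11 in WT, and the paraspeckle genes lie between -0.50 and 0.44 in WT.

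Genes next to the 8 RNAs were read from the same fit. Of 16 tested neighbours or overlapping genes, 5 were called higher and 1 lower in WT, and none in KO or between genotypes. Of all genes, 13.1% were called higher and 9.41% lower in WT, and 6.32% were called in KO. Rcc1, which overlaps Snhg3, rose by 0.74 on the log2 scale (edgeR adjusted p = 0.0341), and Syncrip, downstream of Snhg5, 0.42 (edgeR adjusted p = 0.0212). Tcf24, upstream of Snhg6, had 0.61 and Ccm2, upstream of Snhg15, 0.34, while Sgk3, downstream of Snhg6, had -0.32. Gm27702, separated from Neat1 by a gap of 1 base and at 2 to 49 counts per library, had 2.53 (edgeR adjusted p = 0.0451) with overlapping groups. Zbtb37, which overlaps Gas5 on the other strand, was not called, with a value of -0.06.

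The genes most like 3 of these RNAs were sought among 15241 genes with a mean of at least 1 CPM, by the correlation of deviations from the group means over the 12 libraries. These points share libraries and depth, and the correlations are descriptions. For Gas5 they were Wdr77 (r = 0.96), Wdr46 (r = 0.96) and 2010003K11Rik (r = 0.96). For Neat1 they were Taf15 (r = 0.99), whose product is a paraspeckle protein, Sin3a (r = 0.99) and Arih2 (r = 0.99), and without WT IRI replicate 3 their correlations were 0.96, 0.93 and 0.92. For Malat1 they were Vps13d (r = 0.99), Abl2 (r = 0.98) and Mef2d (r = 0.98). Neat1 and Malat1 had r = 0.91 with each other, and 0.89 without WT IRI replicate 3, whereas Gas5 and Neat1 had 0.10 and 0.54 without it.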

How the data were processed

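Total RNA of 12 kidney libraries was measured, and the authors deposited raw counts by Ensembl gene, not normalized. Ribosomal RNA was removed and strand-marking libraries were sequenced from both ends, per the labels' protocols. STAR and mm10 were used, per the submitters' processing notes. The counting tool and its use of strand are not named there, and reads that overlap more than 1 gene may have been dropped or split, which could lower hosts and snoRNAs.

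Column names were matched to sample titles. Counts were tested with edgeR 4.0.16 in R 4.3.3: filterByExpr (minimum count 10, total 15) kept 19218 of 42748 genes, library sizes were scaled by TMM, and 1 quasi-likelihood model, with a mean for each group, was fitted to all 12 libraries. Tests were two-sided, and p-values were adjusted by Benjamini-Hochberg over all genes tested. Intervals are 95% intervals of the fit. Alternatives used DESeq2 1.42.0 and limma-voom (limma 3.58.1), other scalings, filters and samples, and the fit was tested on simulated data. Libraries of a group differed by more than sampling noise.

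All 10 members are named whatever their values. Up to 4 called genes per direction of each list, the neighbouring genes, and the 3 genes most like Gas5, Neat1 and Malat1 are named too, and some neighbouring genes are not reported here. Members, lists, the Y-linked covariate and the left-out libraries were chosen with earlier results of these data known. Leaving WT IRI replicate 3 out of the correlations was added after seeing the data.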

Additional observations from a re-analysis of the deposited data

How the results depend on the processing

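The number of RNAs called of 7 was recomputed under 24 other settings, 12 of which leave out 1 library. In KO IRI against KO control (2 called) it was 0 with the replicate block and 0 without the adrenal libraries, and from 0 to 3 when each library was left out. In WT IRI against WT control (6 called) it was 0 with the Y-linked covariate and 2 with only the groups compared. It was from 3 to 6 when each library was left out, the lowest without each WT control library. The share of all genes called also varied when each library was left out, from 0.912% to 14.7% in KO and from 8.04% to 36.1% in WT. In WT that share was 12%, 8.04% and 8.57% without WT control replicates 1, 2 and 3. In KO IRI against WT IRI (0 called) the number of RNAs called was from 0 to 1. Neat1 was called without WT IRI replicate 2, in a fit that called 4.43% of all genes. The number of RNAs called was 0 throughout in KO control against WT control and for the interaction. Same-numbered libraries did not deviate together (18 pairs, r from -0.417 to 0.0773). With 3 libraries per group such values cannot exclude a pairing, and the labels state none, so the block stands here as a setting. With the block, edgeR adjusted p was 0.0789 for Gas5 and 0.0734 for Snhg5 in KO, and 0.0511 for Snhg6 and 0.0722 for Malat1 in WT. Of 833 log2 fold changes of single RNAs under other settings, 749 kept their direction and side of the threshold, 49 lost and 8 gained a call, and 27 changed sign, none of them called. After IRI, 349 of 350 values in both genotypes were above 0. The exception was Snhg12 in WT with the Y-linked covariate (-0.00854). Gas5 in KO control against WT control (-0.0041) was 0.0107 with RLE scaling, 0.0198 with scaling without the members and abundant small RNAs, 0.0106 with DESeq2, 0.00982 with no filter, 0.0133 with a filter of 1 CPM in 3 libraries, 0.00194 with only the groups compared, 0.00864 without the adrenal libraries and 0.00925 without libraries whose Y-linked level was intermediate, and from -0.0422 to 0.0464 when each library was left out. The interaction of Snhg12 (0.026) was -0.00464 with RLE scaling, -0.0136 with scaling without the members and -0.00355 with DESeq2. With the Y-linked covariate, Neat1 in KO control against WT control was -0.103, and the interactions of Snhg6 and Snhg15 were 0.0920 and 0.0897. When each library was left out, the interaction ran from -0.090 to 0.135 for Snhg12 and from -0.483 to 0.236 for Snhg5, and KO control against WT control from -0.178 to 0.0259 for Snhg6 and from -0.255 to 0.115 for Snhg15. The cause of these changes was not tested. Over all genes, KO IRI against KO control gave 1215 calls, 2494 with DESeq2, 469 with the replicate block and 44 without the adrenal libraries. WT IRI against WT control gave 4320 calls, 2730 with the block, 1232 with only the groups compared, 300 with the Y-linked covariate and 6549 without libraries of intermediate Y-linked level. Between genotypes, DESeq2 called 72 genes in controls and 117 after IRI, where edgeR called 2 in each. With library sizes alone the median log2 value of all genes was 0.102 for KO IRI against KO control and 0.132 for the interaction, against 0.0227 and -0.00854 with TMM. The setting with only the groups compared was not run for the interaction. Depth limits Snhg3 (at most 9 counts) and Snhg5 (73 to 327 counts).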
